A study of Bactrocera dorsalis with 4 samples.

Results

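The 4 lists of known miRNAs of the oriental fruit fly Bactrocera dorsalis mark each entry by how its sequence stands to miRBase, the public register of miRNAs, and some entries carry the mark New. The miRNAs described here are all those with that mark, counted once per distinct name. There were 47 such names among the 212 names of the 4 lists, and no name appeared both with and without the mark. Each ended in p5 or p3, the arm of the hairpin to which it was assigned. The 47 names stood for 56 distinct sequences at 62 positions, where a position is 1 sequence at 1 place in the genome. The other 165 names are called reference miRNAs below, as the set for comparison. Of these, 41 had entries marked Yes alone, 103 entries marked Diff alone and 21 both, so for many of them the listed sequence was not marked as that of miRBase.

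Small RNA was sequenced from adults aged 12 days, with 1 library per condition. The 4 conditions were females without their ovaries, males without their testes, ovaries, and testes, and total RNA of each was taken up in Trizol. The flies were reared on artificial diet and the sexes were kept apart from emergence, and no treatment is named for any group. Without replicates, libraries were compared by description and not by a test. The lists were read as detection, without amounts, and a name missing from a list was not read as absent from the tissue.

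A miRNA is cut from a precursor RNA that folds back on itself into a hairpin. Both arms of the hairpin can yield a mature miRNA, and the 2 products lie against each other as a short duplex before one of them is loaded into an Argonaute protein. The loaded strand finds its mRNA targets mainly through its seed, bases 2 to 8 from the 5′ end, so the products of the 2 arms of a hairpin have different targets. The less abundant product, the passenger or star strand, is often the last to be recorded. A New form was therefore checked for a reference product of the opposite arm at the same place.

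The data divided the New forms into 3 kinds, a division made after their sequences and places had been seen, so it is given without a test. At 10 positions a reference miRNA of the opposite arm lay on an overlapping precursor. At 19 positions the New sequence instead resembled a reference miRNA of its own number, with at most 2 mismatches over at least 16 shared bases, and lay at another place in the genome. At the remaining 33 positions neither was found. By the stricter count, in which the opposite arm had to carry the same name as well as the same place, 9 of 47 names (19.1%, 95% exact binomial interval 9.15 to 33.3) had their other arm listed. The description of these miRNAs as opposite-arm forms thus held for a minority of them, and they are called miRNAs marked New, or New forms, here. This interval and those below cover counting error only.

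The New forms with a reference opposite arm come first, because both products of 1 hairpin can be read side by side. Each sequence is written 5′ to 3′ with the seed in capitals, and T stands for U, as in the lists. The forms mir-184-p5 and mir-994-p3 are shown with their opposite arms because they were the members of this kind listed in all 4 libraries, and the other 8 were added after their values were seen.
mir-184-p5: cCTTATCAttctttcgccccgt
miR-184-3p: tGGACGGAgaactgataagggc
mir-994-p3: tATCACAGttgctgtttctttt
miR-994-5p: tAAGGAAAtagtagccgtgatt
mir-12-p3: cAGTACTTatgtcatactgt
mir-124-p5: gGTATCCActgtaggcctatatg
mir-137-p5: aCGCGTATtcttgggttactaa
mir-263a-p3: tTCCCGTGatctcttagtggcat
mir-2c-p5: tCATCAAAaagggctgttg
mir-307a-p5: tGCTTTGActcactctgtc
mir-318-p5: tATACCAAgttcagttttg
mir-87-p5: tCGCGCCTgtatcttgctgaacc

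The hairpins of mir-994 and mir-184 are printed whole, with both arms in capitals, since these New forms were listed in every library. That of mir-318 is shown as the neighbour of mir-994 and was chosen after its values were seen.
mir-994 hairpin: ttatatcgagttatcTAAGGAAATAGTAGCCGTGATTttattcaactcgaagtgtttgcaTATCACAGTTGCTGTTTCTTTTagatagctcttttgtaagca
mir-184 hairpin: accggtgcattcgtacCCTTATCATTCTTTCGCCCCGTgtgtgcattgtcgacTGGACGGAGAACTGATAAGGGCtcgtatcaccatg
mir-318 hairpin: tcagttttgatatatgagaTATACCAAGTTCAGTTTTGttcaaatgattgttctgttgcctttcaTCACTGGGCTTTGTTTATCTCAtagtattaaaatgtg

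In Drosophila, miR-184 is required for germline and egg development. The reference miR-184-3p and the New mir-184-p5 were both listed in females, males, ovaries and testes. They lay on the plus strand of contig JFBF01000128.1 at 433640 to 433727, a precursor of 88 bases with a refolded free energy of -29.9 kcal/mol. Refolding paired 19 of the 22 bases of mir-184-p5 (86.4%), and each of the 2 arms reached 2 bases past the other at its 3′ end, the overhang that processing by Drosha and Dicer leaves.

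The miR-994 hairpin lay on the minus strand of JFBF01000147.1 at 463817 to 463918, a precursor of 102 bases with a free energy of -35.7 kcal/mol. Both miR-994-5p and mir-994-p3 were in all 4 lists. The seed of mir-994-p3, ATCACAG, was that of 8 reference names, the 3p forms of miR-308, miR-13b, miR-13a, miR-11, miR-6, miR-5, miR-2b and miR-2a, whereas its partner miR-994-5p carries the seed AAGGAAA. In Drosophila, members of this seed family repress the cell death genes reaper, grim and sickle. The reference sequence nearest to mir-994-p3 was miR-6-3p, with 2 mismatches over 20 shared bases. The arm-end geometry of mir-994 was less regular than that of mir-184, with a 3′ overhang of -1 at the base of the hairpin (the 3′ end stopped 1 base short of the other arm) and of 0 at the loop.

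The miR-318 hairpin lay 121 bases from that of miR-994 on the same strand, at 463595 to 463696, and refolded at -30.8 kcal/mol. In Drosophila both are ovary miRNAs. The reference miR-318-3p was in all 4 lists, whereas mir-318-p5 was listed in ovaries only. This mir-318-p5 sequence of 19 nt had 15 bases paired (78.9%), and its overhangs were 5 at the base and 2 at the loop.

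On a list of miRNAs with roles in the nervous system or sense organs of Drosophila were the numbers of 5 New names, namely mir-124-p5, mir-137-p5, mir-263a-p3, mir-276b-p5 and mir-279-p5. Males listed 4 of them, females 2, ovaries 2 and testes 0. Over all 47 New names, males listed 21, females 20, ovaries 19 and testes 21. Of the 5, mir-276b-p5 resembled a reference miRNA at another place. For mir-279-p5, neither such a resemblance nor a reference opposite arm was found. The parent miR-124 is the neuron-enriched miRNA conserved from flies to mammals, and mir-124-p5 was listed in females and males while its reference partner miR-124 was in all 4 lists. The 2 arms lay on JFBF01000080.1, minus strand, 6511 to 6592 (82 bases, -31.9 kcal/mol). The form mir-137-p5 was listed in males only, against females, males and ovaries for miR-137-3p (JFBF01000025.1, minus strand, 1174569 to 1174693, -35.6 kcal/mol). Both forms had regular ends, with overhangs of 0 and 2 for mir-124-p5 against miR-124 and of 2 and 1 for mir-137-p5. They are given for the base and the loop in that order. A second reference entry on the mir-124 hairpin, miR-124-3p, was listed in females and ovaries. Against it, the overhangs of mir-124-p5 were 3 and 2.

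In Drosophila, miR-263a protects mechanosensory bristles from cell death. The New mir-263a-p3 was listed in females, males and ovaries, and the opposite-arm miR-263a and miR-263a-5p in all 4 libraries. Its listed position was on JFBF01000022.1, minus strand, 329564 to 329674, and the hairpin used for folding covered 329536 to 329624 (89 bases). That hairpin had the lowest energy of the 10, at -40.7 kcal/mol. Of the 23 bases of the New form, 20 were paired (87%), the highest share of the 10. Its ends were less regular, with overhangs at base and loop of -1 and -1 against miR-263a-5p and of -1 and -5 against miR-263a. A miR-263a-3p marked Yes is listed on the same hairpin as well, and it matched mir-263a-p3 without a mismatch over 19 shared bases, so this arm was listed with other ends too.

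The miR-2 family acts against cell death in Drosophila. The New mir-2c-p5 was listed in males only and lay opposite miR-2a-3p, which was in all 4 lists, on JFBF01000020.1, plus strand, 1019339 to 1019446 (108 bases, -33.1 kcal/mol). The overhangs of this pair were 3 at the base and -4 at the loop. Because the 2 arms carried the different names 2c and 2a, it was not among the 9 names with an other arm of the same name. The table of predicted miRNAs also held it, as PC-5p-57217_26, with 1 more base at its 3′ end and a precursor from 1019353 to 1019431. It was the only New position to overlap a predicted precursor, so 1 small RNA was entered both as known and as predicted.

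The other 3 forms with a reference opposite arm were mir-12-p3, mir-87-p5 and mir-307a-p5. The form mir-12-p3 was listed in females, ovaries and testes, with miR-12-5p in all 4 lists (JFBF01000073.1, plus strand, 1266962 to 1267060, -38.3 kcal/mol, overhangs 0 and 2). The form mir-87-p5 was listed in males, with miR-87, which in Drosophila acts in dendrite regeneration but was not on that list of neural miRNAs, in females, males and testes (JFBF01000447.1, minus strand, 75690 to 75771, -27.7 kcal/mol, overhangs 0 and 2). Both therefore had duplex ends within the range of reference pairs, -2 to 6 at the base and -1 to 3 at the loop. So did mir-184-p5, mir-994-p3, mir-318-p5, mir-124-p5, mir-137-p5 and, against miR-263a-5p, mir-263a-p3. The form mir-307a-p5 was listed in males, with miR-307a-3p in all 4 lists (JFBF01000245.1, minus strand, 68426 to 68508, -32.8 kcal/mol). It differed from its hairpin at 3 neighbouring bases, A16T, A17G and C18T, where the letter before the number is the hairpin base and positions count from the 5′ end of the New form. Its overhangs of -7 and -9 were the most irregular of the 10, so its place on this hairpin rests on a poorer match than that of the others.

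The opposite arm was listed wherever the New form was. The 10 New forms made 21 cases of a form in a library, and in 21 of these the same list also held the reference arm. The reference arm itself made 38 cases. Except for the partners of mir-137-p5 and mir-87-p5, the reference arms were in all 4 lists, so most of these cases could not have come out otherwise. Among all 165 reference names, 108 were in all 4 lists (65.5%). The 21 cases are therefore not read as joint detection of the 2 arms. The reference arm was in more lists than the New form for 8 of the 10 hairpins and in as many for 2, those of mir-184 and mir-994. On the hairpins, 5 of the 10 New pairs had both overhangs between 0 and 3 bases, beside 30 of 36 pairs of reference arms (83.3%, 67.2 to 93.6). The median overhang was 0 at the base and 1.5 at the loop for the New pairs, and 2 and 2 for the reference pairs. In pairing, by contrast, the New forms were close to reference miRNAs, with a median of 83.4% of their bases paired (73.7 to 87) beside 82.6% (63.6 to 100) for 140 reference sequences.

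**Figure D1:**
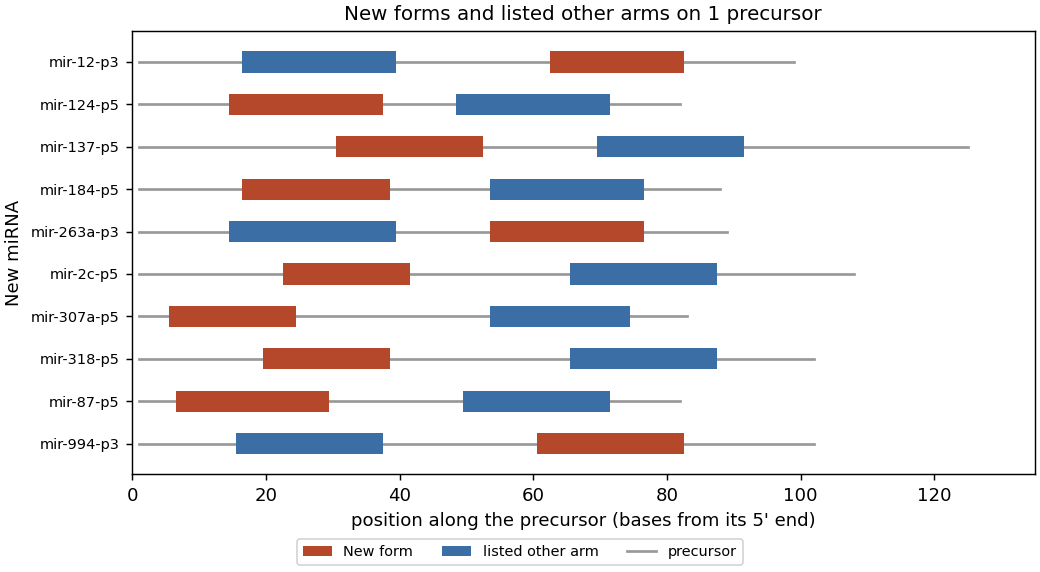
Position in bases from the 5′ end of the precursor (x axis) of the New form and of the reference arm for each of the 10 precursors (y axis), with the precursor as a line. The 2 arms lie on opposite sides of a loop on each precursor, and the precursors of mir-124 and mir-87, of 82 bases, are the shortest.

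The second kind, the near copies, consisted mainly of miR-1 and miR-14. The parent miR-1 is the muscle miRNA of animals, and in Drosophila miR-14 limits cell death and acts in fat and insulin metabolism. Under mir-1-p3 and mir-1-p5 there were 6 sequences at 7 positions on 7 contigs, and under mir-14-p3 and mir-14-p5 there were 7 sequences at 7 positions on 7 contigs. They are printed with the reference miR-1-3p and miR-14-3p listed in all 4 libraries, because each resembles that reference arm and not its opposite. The mir-1 sequences come first.
miR-1-3p: tGGAATGTaaagaagtatggag
mir-1-p3 on JFBF01000004.1: tGGAATGTaaagaagtca
mir-1-p5 on JFBF01005944.1: tGGAATGTaaagaagcatt
mir-1-p3 on JFBF01000171.1: tATGTAAAgaagtatggaga
mir-1-p3 on JFBF01004782.1: aATTTAAAgaagtatggaa
mir-1-p3 on JFBF01001185.1 and mir-1-p5 on JFBF01000370.1: tGTAAAGAagtatggaaa
mir-1-p3 on JFBF01000132.1: tGTGAAGAagtatggagaaa
The mir-14 sequences were as follows.
miR-14-3p: tCAGTCTTtttctctctcct
mir-14-p5 on JFBF01000142.1: tCAGTCTTtttatctctcca
mir-14-p5 on JFBF01000133.1: tCAGACTTtttctctctccc
mir-14-p5 on JFBF01000267.1: tCAGCCTTtttctctctcca
mir-14-p5 on JFBF01000020.1: tCATTCTTtttctctctccc
mir-14-p5 on JFBF01000012.1: tCATTCTTtttctctctct
mir-14-p3 on JFBF01000596.1: tCATTCTTtttctctctcat
mir-14-p3 on JFBF01000009.1: tCAATCTTtttctctctcca

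The mir-14 copies began at the first base of miR-14-3p in 7 of 7 positions, and in 6 of the 7 a base of the seed differed. The seed change was G4T at 3 positions, G4A at 1, T5A at 1 and T5C at 1, with the reference base first. The 3 copies with G4T share the seed CATTCTT with the reference miR-1-5p, and 1 of them, on JFBF01000020.1 at 1027588 to 1027686, was the copy listed in all 4 libraries and gave mir-14-p5 its place among the 4 names found in every list. That copy lay 8142 bases from mir-2c-p5. Of the 7 mir-14 sequences, males listed 5, females 3, and ovaries and testes 2 each.

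The mir-1 copies differed in where they began. At 2 of 7 positions the New sequence began at the first base of miR-1-3p and kept its seed GGAATGT, and at the other 5 it began 3 or 5 bases later. Of the 6 sequences, males listed 5, females 2, and ovaries and testes 1 each. One of them, on JFBF01000171.1, shared the seed ATGTAAA with a reference miR-1-3p form that also begins later, aATGTAAAgaagtatgaa on JFBF01000224.1. Near copies were thus also present among the reference miR-1-3p entries and were not peculiar to the New forms.

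Of the 8 names with near copies, the other 4 were mir-276b-p5, mir-315-p3, mir-318-p5 and mir-6-3-p5. Their sequences are shown, with the form each resembles except for mir-318-p5. Its nearest form was listed under a chromosome arm name, with 1 mismatch over 20 shared bases and the same seed. The miR-318-3p on contig JFBF01000147.1 has the seed CACTGGG, so against that form a base of the seed differed. The pair of mir-276b-p5 and its reference form was added after its values were seen.
mir-276b-p5: tAGTAACTtaataccgtgca
miR-276b-3p: tAGGAACTtaataccgtgctct
mir-315-p3: tTTTGATTgttgctcagtt
miR-315-5p: tTTTGATTgttgctcagaaagcc
mir-318-p5 on JFBF01000014.1: tCAGTGGGctttgtttatca
mir-6-3-p5 on JFBF01000813.1: cATCACAGtggctgttttt
mir-6-3-p5 on JFBF01000218.1: cACAGTGGctgttctttaa
miR-6-3p: cATCACAGtggctgttcttt

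The form mir-276b-p5 was listed in males and differed from miR-276b-3p at G4T and T20A, so its seed was changed. The form mir-315-p3 was listed in females and testes, kept the seed of miR-315-5p (in Drosophila an activator of Wingless signalling) and differed at A18T and A19T. The 2 mir-6-3-p5 sequences and the second mir-318-p5 sequence were listed in ovaries only, and miR-6 belongs in Drosophila to the miR-309 cluster of the early embryo. Of the 2 mir-6-3-p5 sequences, the one on JFBF01000813.1 kept the seed ATCACAG and carried C17T, and the one on JFBF01000218.1 began 3 bases later and matched miR-6-3p without a mismatch over 17 bases.

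Over the 19 near-copy positions, 1 had no mismatch to its nearest reference form, 8 had 1 and 10 had 2. At 12 of them the name placed the New form on the arm opposite to that of the reference form it resembled, and at 7 on the same arm, so the arm in the name did not follow from the sequence. For example, the same 18 bases tGTAAAGAagtatggaaa were named mir-1-p3 on JFBF01001185.1 and mir-1-p5 on JFBF01000370.1. The span of the listed precursor had a median of 52 bases at the near copies (28 to 112), and 10 of the 19 spans were under 60 bases. No hairpin sequence of a near copy was used here, so their folding was not examined.

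The third kind had neither a reference opposite arm nor a resemblance to a reference form. It comprised 30 names, 28 sequences and 33 positions, and the nearest reference sequence of any number had at least 4 mismatches. For 21 of these names, of 18 numbers, the lists held no reference entry of that number. The 21 are shown because the lists held no reference entry of their number, beginning with those in more than 1 library.
mir-240-p5: tTTGGCTTtgaattttat
mir-71a-p5: tGAGACGAtgaaatatagt
mir-4948-p3 and mir-4948-p5: gGCGGAGGtggcggcggc
mir-4982-p3: gCCGGTGCtgctgctcgc
mir-9891-p3: tGGCGGCGgcggcggtggc
The others of the 21 were each in 1 library.
lin-4-p5: aTGCATGTcgatgttgcg
mir-54b-p3: cGAAGTCAaactgctgta
mir-2498-p5: tAAAATTGtaaaggcttt
mir-4939-p3: cGGAAGAGgaggacgaag
mir-978-p3: tAAATTGCatttgtgtaaa
mir-2491-p3 and mir-2491-p5: aACATGAAcaacatcaacaac
mir-2494-p3: cATCTTCCgtccggcgctca
mir-2494-p5: cATCTTCCgtccggcgctc
mir-3724-p5: aAACTTTGaatacataac
mir-3352-p5: aTTTGTGCtgtgtgtaat
mir-4944-p5: cGTAATCGaaaaagtctt
mir-4974-p3: aTTGAATTtaggtggaca
mir-2807a-6-p3: tGGAACGTttgcttttatt
mir-4953-p5: aAAAAAGTtttatttttgct

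Among these 21 names, mir-240-p5 was listed in all 4 libraries (JFBF01000215.1, minus strand, 494171 to 494283) and mir-71a-p5 in males, ovaries and testes (JFBF01000003.1, plus strand, 2853727 to 2853865). The forms mir-4948-p3 and mir-4948-p5 were listed in males and testes, mir-4982-p3 in females and ovaries, and mir-9891-p3 in females and males. Those of a single library were lin-4-p5, mir-54b-p3, mir-2498-p5, mir-4939-p3 and mir-978-p3 in ovaries, mir-2491-p3, mir-2491-p5, mir-2494-p3, mir-2494-p5 and mir-3724-p5 in testes, mir-3352-p5, mir-4944-p5 and mir-4974-p3 in females, and mir-2807a-6-p3 and mir-4953-p5 in males. The name lin-4 is that of the founding miRNA of the nematode Caenorhabditis elegans, where it times larval development.

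Several of these sequences had a high share of bases equal to the base 3 before, read without a set limit. Among other New forms, mir-4953-p5 reached 52.9% and mir-2c-p5 50%, and no value for reference miRNAs is given here. The span of one sequence was no longer than its mature form. The sequence of mir-4948 had 88.9% G and C, and 80% of its bases were equal to the base 3 before, the mark of a triplet repeat. For mir-9891-p3 the values were 89.5% and 81.2%, for mir-4982-p3 77.8% and 60%, and for mir-4939-p3 61.1% and 66.7%. The mir-2491 sequence, in which AAC recurs, had 66.7% of its bases equal to the base 3 before. The forms mir-2494-p3 and mir-2494-p5, named as 2 arms, were the same stretch with and without its last base, in a span of 20 bases on JFBF01000030.1 at 1954540 to 1954559.

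The other 9 names of the third kind had a reference miRNA of their number at another place and not resembling them. They were mir-219-p3 (females and testes), mir-279-p5 (ovaries), mir-307b-p5 (females), mir-311-p3 (ovaries, 2 sequences), mir-79-p3 (females, males and testes), mir-963-p3, mir-963-p5 and mir-971-p5 (testes) and mir-983-1-p3 (females and ovaries). In Drosophila, miR-279 acts in the formation of carbon dioxide sensing neurons, and miR-311 is expressed in the germline. Of the New names, 4 had a number from the fast-evolving testis clusters of Drosophila. The 2 mir-963 names stood for the same sequence on different contigs and were listed in testes alone. The form mir-978-p3 was listed in ovaries alone and mir-983-1-p3 in females and ovaries, so these 4 names were not limited to testes.

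Hairpin sequences were used for 14 positions of the third kind. The New form lay on the side that its name gives in 14 of 14, as it did in the 10 positions with a reference opposite arm. The side was read from the position along the precursor, whether or not the form was paired. Names and precursors come from the same study, so this is no independent check of the arm. The bases paired had a median of 66.7% (0 to 78.9), and the free energy per base a median of -0.230 kcal/mol (-0.460 to -0.044), beside -0.345 (-0.457 to -0.285) for the 10 hairpins with a reference opposite arm and -0.340 for 114 hairpins of reference miRNAs. The lowest pairing was that of mir-2491-p5, with 0 bases paired and -4.5 kcal/mol for the whole hairpin. The repeat mir-9891-p3 had the highest pairing of the 14, with 78.9% of its bases paired and -36.4 kcal/mol, and mir-4948-p5 the lowest energy, at -41.4 kcal/mol. Of the 24 New forms placed in a hairpin, 17 matched it base for base, 6 differed at 1 base, as mir-240-p5 did with A13T and mir-71a-p5 with T18G, and 1, mir-307a-p5, at 3.

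**Figure D2:**
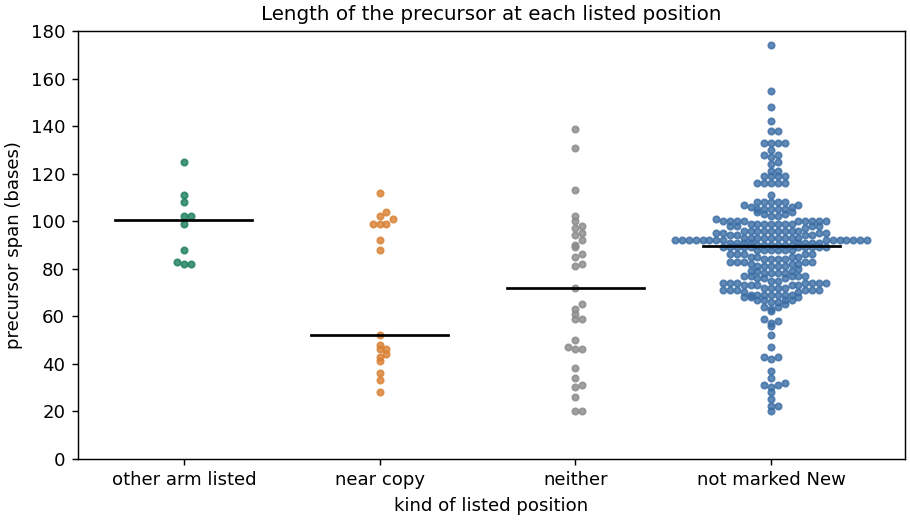
Precursor span in bases at each listed position (y axis) for the 3 kinds of New form and for reference miRNAs, those not marked New (x axis), 1 point per position with the median as a bar. Positions with a reference opposite arm sit at 82 bases or more, whereas 10 of the 19 near copies and 13 of the 33 others lie under 60 bases.

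Over all New positions, 23 of 62 spans were under 60 bases (37.1%, 25.2 to 50.3), beside 20 of 250 (8%, 4.95 to 12.1) for reference miRNAs. The medians lay closer together, at 82.5 bases for the New and 89.5 for the reference positions. The New positions were on contigs of the B. dorsalis genome in 62 of 62 cases, whereas 172 of the 250 reference positions were, the others carrying chromosome arm names.

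The New sequences were shorter than the reference ones. Their median length was 19 nt (18 to 23) beside 22 nt (18 to 25), and 49 of the 56 sequences were 18 to 20 nt long (87.5%, 75.9 to 94.8) beside 43 of 235 (18.3%, 13.6 to 23.8). Only 7 New sequences (12.5%, 5.18 to 24.1) had the 21 to 23 nt of a usual Dicer product, beside 182 reference ones (77.4%, 71.6 to 82.6). The 3 kinds differed here too. Forms with a reference opposite arm had a median of 22 nt (19 to 23), near copies one of 20 nt (18 to 20) and the others one of 19 nt (18 to 21).

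**Figure D3:**
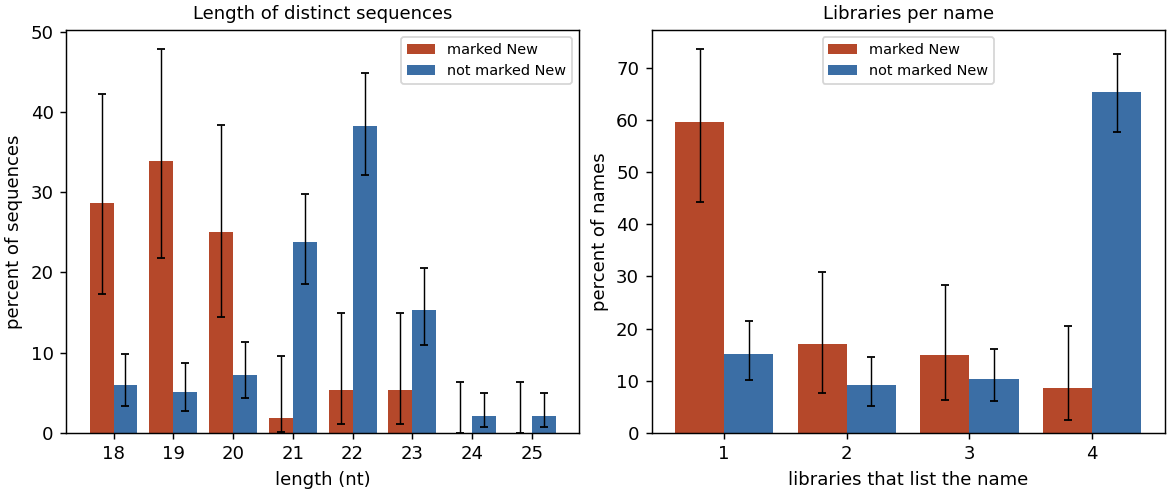
Left, percent of distinct sequences at each length in nt for the 56 New and the 235 reference sequences; right, percent of names by the number of libraries that list them, for the 47 New and the 165 reference names, with 95% exact binomial intervals as bars. New forms peak at 19 nt and in 1 library, reference forms at 22 nt and in 4 libraries.

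The New names were also listed in fewer libraries. Of the 47, 28 were in 1 library (59.6%, 44.3 to 73.6), 8 in 2, 7 in 3 and 4 in all 4 (8.51%, 2.37 to 20.4), whereas 108 of the 165 reference names were in all 4 (65.5%, 57.7 to 72.7) and 25 in 1 (15.2%, 10.1 to 21.5). The 4 names in every library were mir-14-p5, mir-184-p5, mir-240-p5 and mir-994-p3, 1 of them a near copy, 2 with a reference opposite arm and 1 with neither. With the ovaries left out, 18.4% of the New names in the other 3 lists were in all 3.

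Each library held a similar number of New names, 21 in males and in testes, 20 in females and 19 in ovaries, or 12.6% to 13.4% of the names of a library. The ovary library, which had the fewest clean reads of the 4 by the study's read counts, had the fewest reference names as well. Names found in a single library numbered 9 for ovaries, 8 for testes, 7 for males and 4 for females. Among the 8 for testes, mir-2491 and mir-963 each gave a p3 and a p5 name to 1 sequence. The p3 and p5 names of mir-2494 differed by the last base. Counted as distinct sequences, males listed 26 New forms, ovaries 23, females 21 and testes 18. The kinds were spread unevenly. Males listed 8 of the 10 positions with a reference opposite arm and 12 of the 19 near copies. Females listed 5 and 7, ovaries 5 and 6, and testes 3 and 4. Over all 62 New positions, males listed 28, ovaries 25, females 22 and testes 21. The third kind took 14 of the 33 positions in ovaries and 14 in testes, beside 10 in females and 8 in males. With 1 library per condition, tissue and depth cannot be told apart in these counts.

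**Figure D4:**
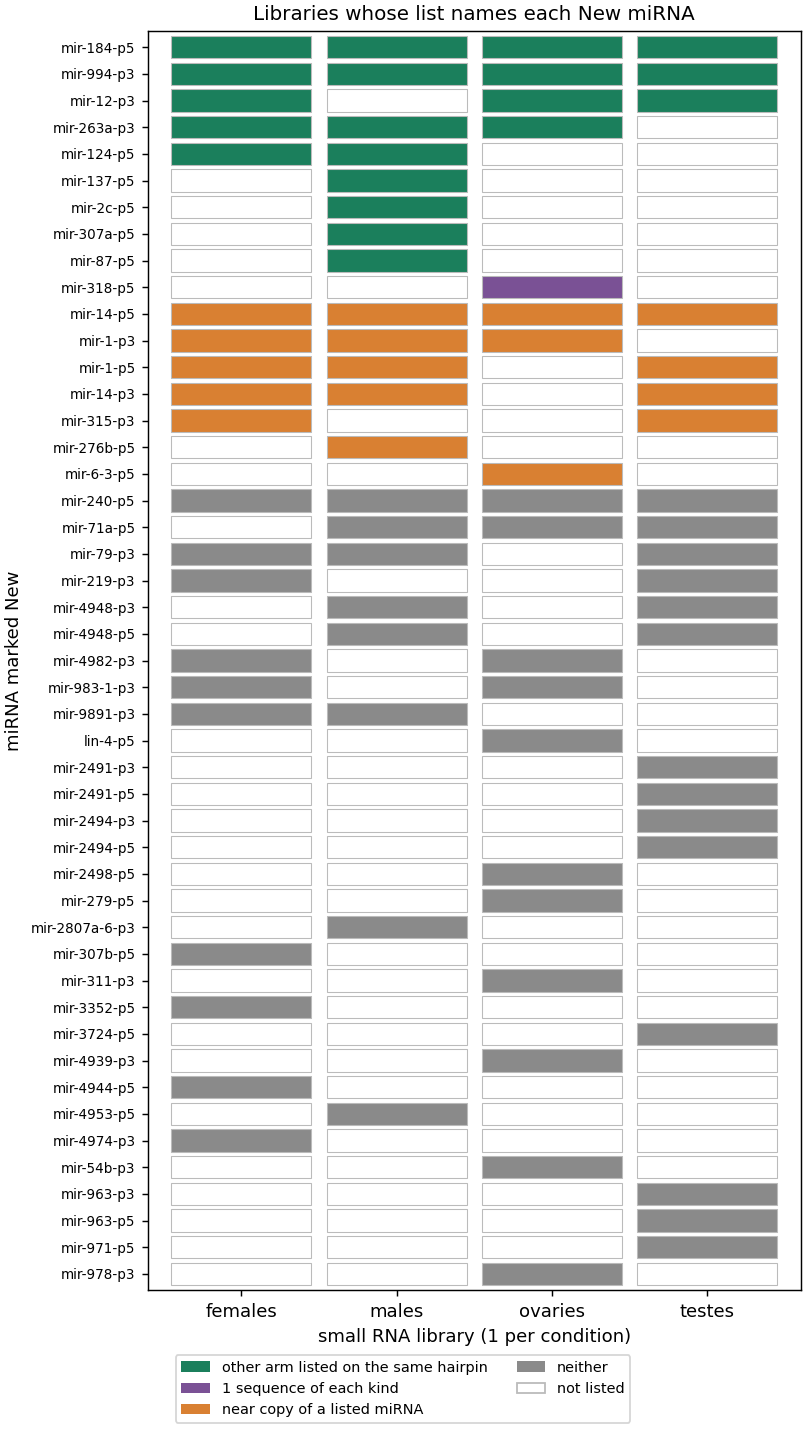
The libraries (x axis) whose list names each of the 47 New miRNAs (y axis), with a filled cell where it is listed, coloured by kind. Filled rows across all 4 libraries are those of mir-14-p5, mir-184-p5, mir-240-p5 and mir-994-p3, and 28 rows have 1 filled cell.

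The arm and the first base set the New names apart less than length did. Of the 47, 26 were named p5 and 21 p3 (55.3% p5, 40.1 to 69.8), beside 72 and 79 of the 151 reference names with an arm (47.7%, 39.5 to 56). With 1 vote per name, split over its sequences, T stood first in 50.6% (36.1 to 65.9), beside 51.2% (43.6 to 59.4) for reference and 60% (53.1 to 66.6) for predicted miRNAs. Among the kinds, T stood first at 6 of 10 positions with a reference opposite arm, 16 of 19 near copies and 14 of the 33 others. The shares of A, C and G among New names were 19.6%, 21.3% and 8.51%.

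Genomic neighbours were counted for the New names alone. Within 10000 bases, 5 of the 47 New names had another listed miRNA that was not on their own precursor. The same share of the reference names was not counted, so the 5 are not read as a trait of the New names. Besides the mir-318 and mir-994 hairpins, mir-12-p3 had miR-3477-5p as its nearest neighbour and lay 2387 bases from miR-283, with which miR-12 is also clustered in Drosophila, and mir-2c-p5 lay 2025 bases from miR-13a-3p and 2443 from miR-13b-3p, other members of the miR-2 family. The remaining one was mir-14-p5, 5631 bases from miR-13b-3p. These neighbours lay on the same strand as the New form.

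By number alone, 19 of the 47 names fell on at least 1 of 9 lists of miRNAs with known roles in Drosophila, and 28 on none. The share of the 165 reference names on any list was not counted. The 19 are therefore not read as a trait of the New names. The names mir-279-p5, mir-311-p3, mir-963-p3, mir-963-p5, mir-978-p3 and mir-983-1-p3 were of the third kind, so their place on a list rests on the name and not on a resemblance in sequence. Growth and cell death held 4 (mir-14-p3, mir-14-p5, mir-2c-p5, mir-6-3-p5) beside 18 reference names, the nervous system and sense organs 5 beside 23, germline and ovary 4 (mir-184-p5, mir-311-p3, mir-318-p5, mir-994-p3) beside 11, and the miR-309 cluster 1 beside 5. Muscle held 2, the mir-1 names, beside 2, and the fast-evolving testis clusters 4 beside 11. The Hox, let-7 complex and mirtron lists held 0 New names beside 5, 7 and 3 reference names. Of the germline and ovary names, 4 of 4 were listed in ovaries, beside 2 each in females, males and testes, and over all 47 New names 19 were listed in ovaries, 20 in females, and 21 each in males and testes.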

How the data were processed

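Small RNA of 4 libraries, 1 per condition, was sequenced. The authors removed adaptors, poor reads and those that hit mRNA, Rfam or Repbase, and called known miRNAs by at most 1 mismatch to miRBase or to earlier B. dorsalis miRNAs. The labels name ACGT101-miR as the program, whereas the paper names MIREAP for obtaining the predicted miRNAs and RNAfold for their hairpins. The deposited lists give other quantities than amounts, namely the sequence, its length in nt, its position in bases and the miRBase mark, and the deposited table of predicted miRNAs also gives free energies in kcal/mol. Reads per entry were not used, so depth per entry is unknown here.

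All entries marked New were taken, 1 member per name. Members and lists were chosen with earlier results of these data known. Every member is named with its arm and libraries, and sequences were printed for members in all 4 libraries whose other arm is listed at the same place (with their hairpins), members sharing bases 2 to 8 with a reference miRNA, and members whose number has no reference entry. Other sequences were chosen after seeing values. Mature sequences come from the deposited lists, hairpin sequences from the supplementary table of known miRNAs, folded with RNAfold 2.7.2 at 37 degrees. The genome build behind the contigs and arm names is not given in the sources used here. Roles come from 9 lists written from knowledge of Drosophila: growth and cell death, nervous system and sense organs, germline and ovary, miR-309 cluster, Hox, let-7 complex, muscle, mirtrons and fast-evolving testis clusters. Intervals are 95% Clopper-Pearson (scipy 1.17.1, Python 3.11.15), and plots used matplotlib 3.10.9. On simulated data the functions returned 35 of 35 planted cases. Targets and qRT-PCR were not analysed here, and 1 line of the predicted table is not reported here.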

Additional observations from a re-analysis of the deposited data

How the results depend on the processing

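Of 37 alternatives, 33 planned and 4 added after seeing the data, 35 changed no value beyond its limits and 2 moved it. With the other arm counted by name alone, whatever its place, 46.8% of the New names had it, against 19.1% by name and place. With at most 1 mismatch allowed, 9 positions were near copies, against 19, which is the construction of a stricter limit. Counting distinct sequences, merging copy numbers, keeping B. dorsalis contigs and leaving out ovaries were among the 35. Of these, 18 could not have moved, since no New names merge by copy number and the New positions are on such contigs in 62 of 62 cases. Folding without dangling ends again left 5 of 10 New pairs with both overhangs between 0 and 3 bases. Hairpins cut from a reference genome and the structures of the supplementary table were not run, since no genome was used here and only sequences were taken from that table. No paired analysis was possible because each condition had 1 library. Reads per entry were not used, so neither amounts nor absence were read, and hairpins were used for 24 of 62 New positions.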
